A study of Chlamydomonas reinhardtii with 4 samples.

Results

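Transcript models that were strongly lowered at every time point of nitrogen starvation were examined in the unicellular green alga Chlamydomonas reinhardtii. A model was selected on its measured log2 ratio of starved over 0 h, which had to be -2 or lower, a decrease of at least 4-fold, on all 4 arrays. Of 14557 models on the array 8227 had a value, 104 met the rule (1.26% of those with a value), and 98 are described here after 6 models were left out by number. Since these ratios chose the models, they are given as a description and without a test.

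The wild-type strain wt cc3491 was grown in TAP, an acetate medium, and each 2-colour array set RNA taken at 0 h (green channel, Cy3) against RNA taken after 24, 48, 72 or 96 h without nitrogen (red channel, Cy5). The series pooled 3 biological replicates, so each time point was 1 array, every SD below is the spread between the 4 time points, and there was no replicate check within a time point. The dyes were not swapped, so a dye effect of a probe and a change of its transcript cannot be told apart. RNA came from whole cultures, in which fewer cells of a kind and less RNA per cell cannot be told apart either.

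Cells of this alga that run out of nitrogen stop dividing, take apart much of their photosynthetic apparatus, store starch and lipids, and can turn into gametes. Light-harvesting proteins carry much of the chlorophyll of the thylakoid membranes: LHCA proteins serve photosystem I and LHCBM proteins form the main antenna of photosystem II. The flagella and the wall, built of hydroxyproline-rich glycoproteins, are renewed around cell division, and histones are made mainly while DNA is copied.

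Between 17203 and 19070 of 43801 non-control spots per array were well above background at 0 h and between 24351 and 26902 under starvation. Per array, the log2 ratio of all models had a median of 0.04 to 0.07. The 3 models of the gamete and mating list with a value were called higher, with means of 1.08 to 1.21 on the log2 scale, and none of them was among the lowered models. The part of sexual cells in the decreases was not tested.

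The 98 models had mean log2 ratios from -5.95 to -2.19, with a median of -3.25, which is a 9.54-fold decrease, while the median over all 8227 models was 0.05. The mean was -4 or lower for 21 models, between -4 and -3 for 39 and above -3 for 38. On every array 31 models were at -3 or lower and 9 were at -4 or lower. All 98 were called lower by limma over the time points, where 11.3% of all models were called lower and 6.71% higher. The rule used this same contrast, so nothing is read from that count.

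**Figure D1:**
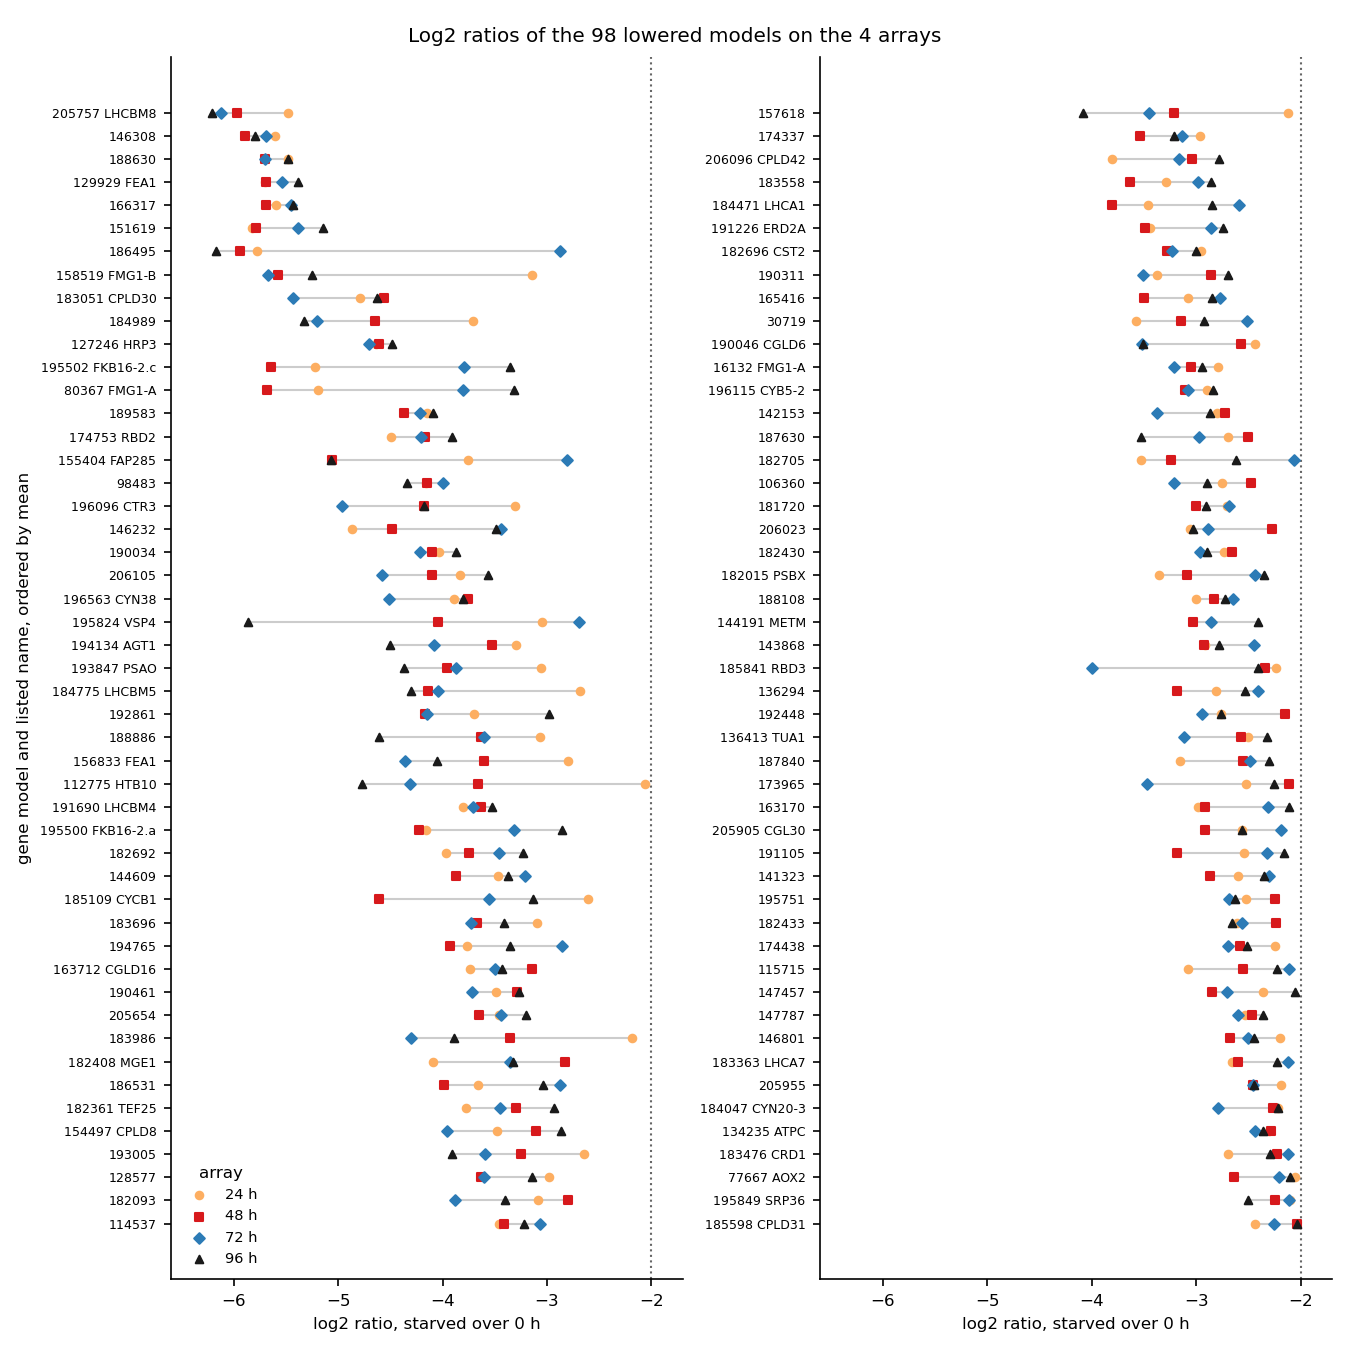
Log2 ratio of starved over 0 h (x axis) of each of the 98 lowered models (rows, ordered by their mean), with 1 point per array and a grey line from the lowest to the highest array; the dotted line marks -2. The range is under 0.5 for 28 models and over 1 for 36, and model 186495 lies at -2.87 at 72 h and below -5.7 on the other arrays.

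The names limit how far the models can be read as genes. A symbol was listed for 43 of the 98 models in the study's supplementary tables of changed transcripts, a description alone for 7, and neither for 48. For 32 of the 43 the symbol came from 1 table only, in which names and models were in part out of step. Of 45 models named both there and in another of the tables, 18 carried a different symbol, and in all 18 cases it was the alphabetically later one. Of 263 rows that it names by a number, 79 carried the number of another model. A symbol from this table alone is therefore written as "listed as". The other 11 models, whose symbol another table gives, are LHCBM8, LHCBM4, LHCA1, LHCA7, PSAO, PSBX, ATPC, HRP3, HTB10, RBD2 and RBD3. All 11 have their symbol from a table in which none of 559 rows named by a number differed. The table with names out of step gives 3 of them another, alphabetically later symbol, HTA1 for HRP3, RDP3 for RBD3 and ATPD for ATPC, and a further table that repeats most of the 11 symbols had 2 of 17 such rows out of step. Loci come from the RefSeq table of the assembly Chlamydomonas_reinhardtii_v5.5, in which 87 of the 98 models matched 1 locus. For 434 models a locus could also be had from a separate table of gene models, and it was the same for 80.4% of them.

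Light-harvesting proteins were one of the best represented groups among the named models. The list of antenna proteins held 7 models with a value, and 5 of them were at -2 or lower on every array, 1 was called higher and 1 was not called. The list median was -3.18 on the log2 scale against 0.05 over all models. A list holds only models with a name and a value that were not left out by number, so this one is not the full set of antenna genes on the array. The lists were written with earlier results of these data known, and names were available mainly for transcripts that the study had picked as changed: 41.4% of the 577 models with a name or description were called lower, against 11.3% of all models. The strongly lowered models made up 8.67% of the 577, whereas 1.26% of all models with a value met the rule. The list counts are therefore no independent evidence of a direction or of an excess of strongly lowered models.

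The lowest mean of all 98 belonged to the model named LHCBM8 (205757, locus CHLRE_03g172500v5), an antenna protein of photosystem II by a symbol that rests on the name tables alone. The RefSeq table gives the locus no symbol, so the identity could not be checked, and without this model 4 of 6 antenna models met the rule. Its log2 ratios were -5.48 at 24 h, -5.97 at 48 h, -6.12 at 72 h and -6.21 at 96 h, with a mean of -5.95 ± 0.32 (SD, n = 4 arrays), a 61.7-fold decrease. With normexp background correction and loess normalization, the alternative used throughout, the mean was -4.68. The processed Cy3 signal at 0 h was between 17671 and 19978 on the arrays, and the processed Cy5 signal fell from 507 at 24 h to between 227 and 260 afterwards. All 3 probes were lowered, but by different amounts, with means of -4.71, -5.95 and -7.40 in slots 1, 2 and 3, the numbers that the probe names give.

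LHCBM4 (191690, CHLRE_06g283950v5), another protein of the photosystem II antenna, differed little between time points, with -3.80, -3.63, -3.71 and -3.52 at 24, 48, 72 and 96 h. The model listed as LHCBM5 (184775, CHLRE_03g156900v5) was at -2.68 at 24 h and at -4.14, -4.04 and -4.30 afterwards. The 24 h array was thus the least lowered one for LHCBM5, by over 1 on the log2 scale, whereas the 4 arrays of LHCBM4 lay within 0.28. The LHCBM4 values are midpoints of 2 kept probes, with means of -4.69 in slot 1 and -2.64 in slot 2. With saturated probes kept, which adds a slot 3 probe at -4.83, LHCBM4 had a mean of -4.69.

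Among the antenna proteins of photosystem I, LHCA1 and LHCA7 met the rule, each through 1 kept probe. LHCA1 (184471, CHLRE_06g283050v5) was at -3.46, -3.80, -2.59 and -2.85 on the 24, 48, 72 and 96 h arrays. LHCA7 (183363, CHLRE_16g687900v5) was at -2.65, -2.60, -2.12 and -2.23. Both were lower on the 24 and 48 h arrays than on the 72 and 96 h arrays. The other 2 probes of each model were saturated at 0 h on all 4 arrays, with mean log2 ratios of -1.87 and -1.80 for LHCA1 and of -1.57 and -1.59 for LHCA7, and a saturated 0 h signal can only understate a decrease where the starved signal is not saturated. With these probes kept, the means were -1.92 for LHCA1 and -1.65 for LHCA7, and with normexp and loess LHCA1 was at -2.22. A second model, 206001, is also listed as LHCA1 and was called higher, at 2.97 ± 2.23.

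Among other parts of the photosynthetic machinery, PSAO, PSBX and ATPC belonged to the strongly lowered models. PSAO (193847, CHLRE_07g334550v5), a small subunit of photosystem I, was at -3.06, -3.96, -3.87 and -4.37. This rests on 1 probe, since both others were saturated at 0 h on all arrays, at -0.53 and -1.72, and 1 of these was also saturated under starvation on 1 array. With them kept, the mean was -1.72 in place of -3.81. PSBX (182015, CHLRE_02g082852v5), a small subunit of photosystem II, was at -3.35, -3.09, -2.44 and -2.35, so that its decrease was smaller on the 72 and 96 h arrays. ATPC (134235, CHLRE_06g259900v5), the gamma chain of the chloroplast ATP synthase, had the narrowest range of all 98 models, with -2.30, -2.28, -2.43 and -2.36. These are midpoints of 2 kept probes, with means of -3.22 in slot 1 and -1.47 in slot 3. From 24 to 96 h slot 1 went from -3.06 to -3.41 and slot 3 from -1.54 to -1.32. The narrow range is thus that of the midpoint, and the slot 3 probe was above -2 on every array. With the saturated slot 2 probe kept, at -0.07, the model's mean was -1.47, and from slots 1 and 2 alone it was -3.22.

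The lists around these genes went in more than 1 direction. Of 3 models of photosystem II subunits and 2 of photosystem I subunits with a value, all 5 were called lower. Of 9 models of electron carriers and the chloroplast ATP synthase, 6 were called lower and 3 higher, with a list median of -1.47. Of 7 models of chlorophyll and heme biosynthesis, 3 were called lower and 4 were not called. The only strongly lowered one was the model listed as CRD1 (183476, CHLRE_07g346050v5), which encodes a subunit of the cyclase that closes the fifth ring of chlorophyll, at -2.70, -2.23, -2.12 and -2.30, with a mean of -2.33 that became -1.69 with normexp and loess. The lists of the Calvin-Benson cycle, inorganic carbon uptake, plastid ribosomal proteins, lipid synthesis and nitrogen assimilation held none of the 98. The list of cytosolic ribosomal proteins also held none, but its 4 models were the 3 of the plastid list and RPS6. It therefore says little about cytosolic ribosomes. In all, 13 of 23 lists held none, among them starch metabolism, for which no model had a value. In the nitrogen list 8 of 10 models were called higher.

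**Figure D2:**
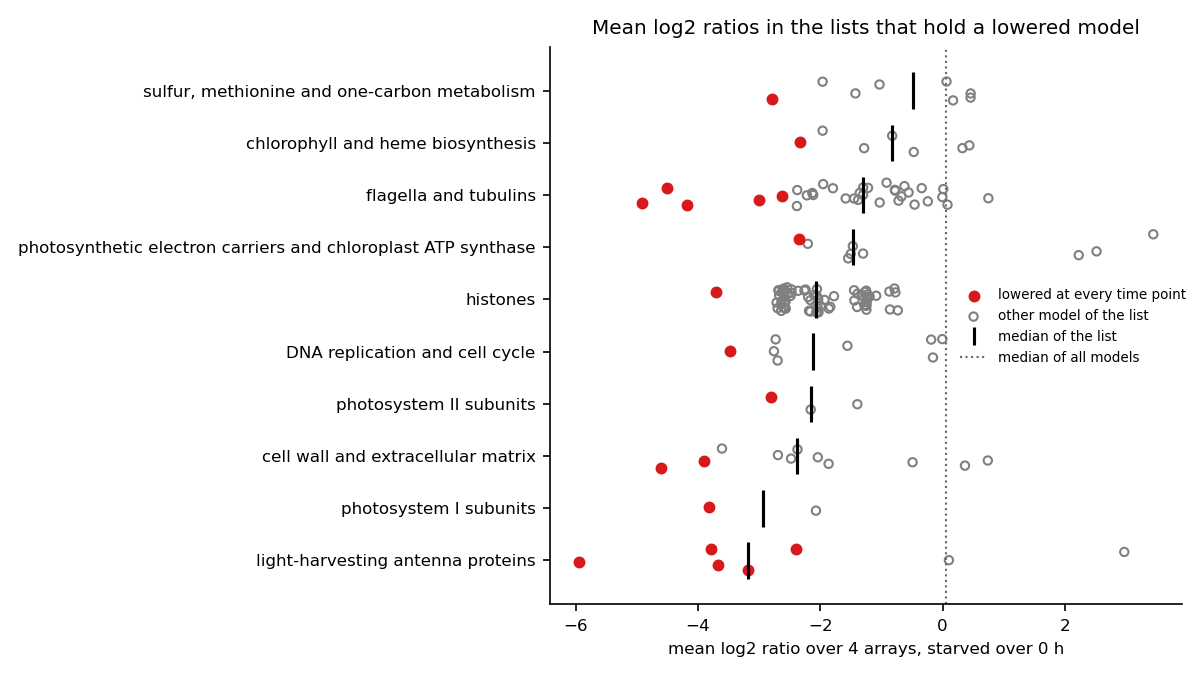
Mean log2 ratio over the 4 arrays (x axis) of every model with a value in the 10 lists that hold a strongly lowered model; filled points are the strongly lowered models, open points the other models of the list, black bars the list medians, and the dotted line the median of all 8227 models. In the antenna list 5 of 7 models are filled, whereas 1 of 72 histone models is.

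Flagellar and tubulin models were as many. Of 34 models on that list with a value, 5 were strongly lowered, 18 were called lower and none was called higher, with a list median of -1.30. Model 80367, 1 of the 5, had nearly the same values as a model listed as FKB16-2.c, described below. Whether 80367 measures a flagellar transcript was not tested. All 5 carry a symbol from the table with names out of step, and among the 18 models of the list with another source of the name none was strongly lowered and 4 were called lower. The model listed as FMG1-B (158519, CHLRE_09g392867v5), the major glycoprotein of the flagellar membrane, was at -3.14 at 24 h and at -5.58, -5.67 and -5.25 afterwards. Its processed Cy5 signal was 870 at 24 h and between 187 and 215 later, with a 0 h signal of 6843 to 7502. The 0 h channel carried the same RNA on every array, so that the ratio changed through the starved channel follows from the design. With normexp and loess the mean of -4.91 became -3.72.

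The symbol FMG1-A was listed for 2 models with different profiles. Model 16132 (CHLRE_18g750047v5) stayed between -3.21 and -2.79 on the 4 arrays, and its mean was -1.98 with normexp and loess. Model 80367, with no matched locus, was at -5.20, -5.68, -3.81 and -3.32. Model 195502, listed as FKB16-2.c and also without a matched locus, had nearly the same 4 values as 80367, at -5.22, -5.64, -3.80 and -3.35, and the largest difference between them on any array was 0.035. Both rest on 1 kept probe, in slot 2. The model listed as FKB16-2.a (195500) had the same profile in its slot 1 probe, at -5.15, -5.61, -3.65 and -3.26. Probe sequences at hand for 195500 and 195502 showed that they are not separate measurements: the first probe listed for each was the same 60-base sequence, and so was the second. Within that pair of sequences 58 bases were also shared, so slots 1 and 2 are not independent probes of these models. The sequences of 80367 were not analysed here, and its slot 1 and 2 probes, at -4.41 and -4.50, lay close to those of 195502, at -4.42 and -4.50. The third probes of 195500 and 195502 differed in sequence, and the slot 3 probes of the 3 models were at -2.86, -0.70 (too dim to be kept) and -5.02 (too dim under starvation) in 195500, 195502 and 80367.

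Model 155404, listed as FAP285, a flagellar associated protein, was at -3.76, -5.06, -2.81 and -5.07. Model 136413, listed as TUA1, an alpha tubulin, was at -2.50, -2.57, -3.11 and -2.32. The 72 h array was the least lowered for FAP285 and the most lowered for TUA1.

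Wall proteins were represented by HRP3 and by the model listed as VSP4. On the list of wall and extracellular matrix genes 8 of 11 models were called lower and none higher, with a median of -2.37. HRP3 (127246, CHLRE_10g463350v5), a hydroxyproline-rich wall protein, was at -4.64, -4.61, -4.71 and -4.48, and the 4 arrays lay within 0.23. Its 2 kept probes differed, with means of -5.94 and -3.28. VSP4 (195824, CHLRE_09g391801v5), described as a hydroxyproline-rich glycoprotein, was at -3.04, -4.04, -2.69 and -5.86, one of the widest ranges of all. Another wall protein, VSP3 (195803), missed the rule by little on 1 array only: it was at -1.996 at 24 h and at -2.82, -4.66 and -4.95 later.

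The lists of histones and of DNA replication and the cell cycle each held 1 of the 98 models. On the latter, 5 of 8 models were called lower and 3 were not called, with a median of -2.13. Among its 4 models with another source of the name 1 was called lower, with a median of -0.17. HTB10 (112775, CHLRE_06g268100v5), a histone H2B, was at -2.06 at 24 h, -3.66 at 48 h, -4.31 at 72 h and -4.77 at 96 h, the steepest slope among the 98. Its processed Cy5 signal went from 1133 to 355, 261 and 225, and its Cy3 signal stayed between 3286 and 3753. With normexp and loess its mean of -3.70 became -2.85 and the 24 h array was at -1.77, outside the rule. Of 72 histone models with a value 67 were called lower and none higher, with a median of -2.07, but HTB10 was the only one at -2 or lower on every array. Among the 27 histone models with a source of the name other than the table out of step, 22 were called lower, with a median of -1.25. Histone genes have many near-identical copies, and the probes of the copies may share transcripts, so the 67 are not separate measurements. The model listed as CYCB1 (185109, CHLRE_16g659300v5), a B-type cyclin of mitosis, was lowest at 48 h, with -2.61, -4.61, -3.55 and -3.13. This rests on 1 kept probe, since those in slots 2 and 3 were too dim, with means of -2.67 and -1.71. The other 3 models listed as B-type cyclins had means from -2.76 to -2.70, and all 4 were called lower. Those 3 had nearly the same values on each array and were lowest at 96 h. Model 195433 was at -0.62, -2.25, -3.23 and -4.69, and model 206120 at -0.68, -2.28, -3.27 and -4.80. Whether the 3 are separate measurements was not tested, so the 4 calls are not counted as 4 results.

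Several lowered models outside these lists share a kind of symbol. These groups were put together after the values had been seen and carry no test. Of the models with a name or description 8.67% were strongly lowered, so the counts in these groups are not read against all models. Of 7 models listed under symbols of peptidyl-prolyl isomerases, enzymes that help proteins fold, 4 were strongly lowered: FKB16-2.c, FKB16-2.a (195500), CYN38 (196563) and CYN20-3 (184047), with means of -4.50, -3.64, -3.99 and -2.37. FKB16-2.c and FKB16-2.a share 2 identical probes, so these 4 models are at most 3 separate measurements. The 3 others lay between -0.64 and -0.54. All 4 lowered ones have their symbol from the table with names out of step. FKB16-2.a was at -4.16, -4.23, -3.31 and -2.86, and this value is the midpoint of a slot 1 probe at -4.42 and a slot 3 probe at -2.86. With normexp and loess FKB16-2.a had a mean of -2.95 and CYN20-3 of -1.76, and from slots 1 and 2 alone FKB16-2.a was at -4.42.

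Rubredoxins, small iron proteins that carry electrons, had 3 models with a value, all called lower. RBD2 (174753, CHLRE_06g284600v5) was at -4.50, -4.17, -4.20 and -3.90, measured by 1 probe, and its mean of -4.19 became -4.84 with probes above background in either channel. RBD3 (185841) was at -2.23, -2.34, -3.996 and -2.41, lowest at 72 h. Its probes in slots 1 and 2 had means of -2.78 and -2.79, but that in slot 3 was at 0.34, and the mean of the 3 was -1.75.

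Models listed under symbols of iron and copper metabolism included the model listed as FEA1 (129929, CHLRE_12g546550v5), an iron-assimilating protein outside the plasma membrane. It was at -5.70, -5.69, -5.54 and -5.39, a 47.8-fold decrease, with kept probes at -5.69 and -5.46, and its mean was -4.47 with normexp and loess against -5.58. A second model listed as FEA1 (156833, CHLRE_17g700950v5) was at -2.80, -3.61, -4.36 and -4.05. The model listed as CTR3 (196096, CHLRE_10g434350v5), described as a copper transport accessory protein, was at -3.30, -4.18, -4.96 and -4.18, with a mean of -4.16 that became -2.92 with normexp and loess. Of 7 models with such symbols 6 were called lower and none higher. The first FEA1 model was steady over the arrays, whereas the other was least lowered at 24 h. The 4 strongly lowered models of this group are both FEA1 models, CTR3 and CRD1, described above.

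Symbols beginning with CGL or CPL mark proteins conserved among green algae and plants, many of them of unknown function. Of 28 such models 7 were strongly lowered, 10 were called lower and 5 higher, and the median of all 28 was -0.15. As in the other groups of named models, these counts are not read against all models. The lowest was the model listed as CPLD30 (183051, CHLRE_12g510400v5), at -4.79, -4.56, -5.43 and -4.63, whereas another model listed as CPLD30 was called higher with a mean of 2.41. METM (144191), as listed, an S-adenosylmethionine synthetase and the only one of 8 on the list of sulfur and one-carbon metabolism that met the rule, was at -2.86, -3.03, -2.86 and -2.41. With normexp and loess its mean was -1.48 and it no longer met the rule.

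Most of the 10 lowest means belonged to models without a symbol. Model 146308 (CHLRE_01g018184v5), described as a farnesyl cysteine-carboxyl methyltransferase, was at -5.60, -5.89, -5.69 and -5.80. Model 188630 (CHLRE_12g507800v5) was at -5.48, -5.70, -5.70 and -5.48. Model 166317 (CHLRE_02g084450v5) was at -5.60, -5.69, -5.45 and -5.43. The arrays of each of these 3 models lay within 0.29, a spread much smaller than the decrease. Model 166317 and model 129929, listed as FEA1, differed by at most 0.097 on any array. Whether they are separate measurements was not tested. Model 151619 (CHLRE_16g652000v5), described only as a hypothetical protein, was at -5.83, -5.79, -5.38 and -5.14. Model 184989 (CHLRE_05g236039v5) was at -3.71, -4.65, -5.20 and -5.33. With normexp and loess 188630, 166317 and 184989 had means of -4.40, -4.72 and -3.79, and with the mean of the probes 146308 was at -4.19.

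The models differed in how steady the decrease was. The range over the 4 arrays had a median of 0.76 on the log2 scale among the 98 models and of 0.60 among all models. It was under 0.5 for 28 models, over 1 for 36 and over 2 for 9. The widest ranges were those of model 186495 (3.30), VSP4 (3.17) and HTB10 (2.71). The narrowest were those of ATPC (0.15), model 188630 (0.22) and HRP3 (0.23), each a midpoint of 2 kept probes. The array with the lowest value was that of 24 h in 22 models, of 48 h in 31, of 72 h in 29 and of 96 h in 16. Medians over the 98 models were -3.08, -3.28, -3.22 and -3.03 at 24, 48, 72 and 96 h, so no array was lowered far more than the others.

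The Cy3 channel carried the same 0 h RNA on every array, and the Cy5 channel a different sample on each, so a wider Cy5 spread follows from the design. The log2 range of the processed Cy3 signal had a median of 0.22 over the 98 models and of 0.25 over all kept probes. That of the Cy5 signal was 0.80 over the 98 models and 0.70 over all kept probes. For model 186495 the Cy3 signal lay between 21388 and 24609, while the Cy5 signal was 386, 331, 3022 and 315 at 24, 48, 72 and 96 h.

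**Figure D3:**
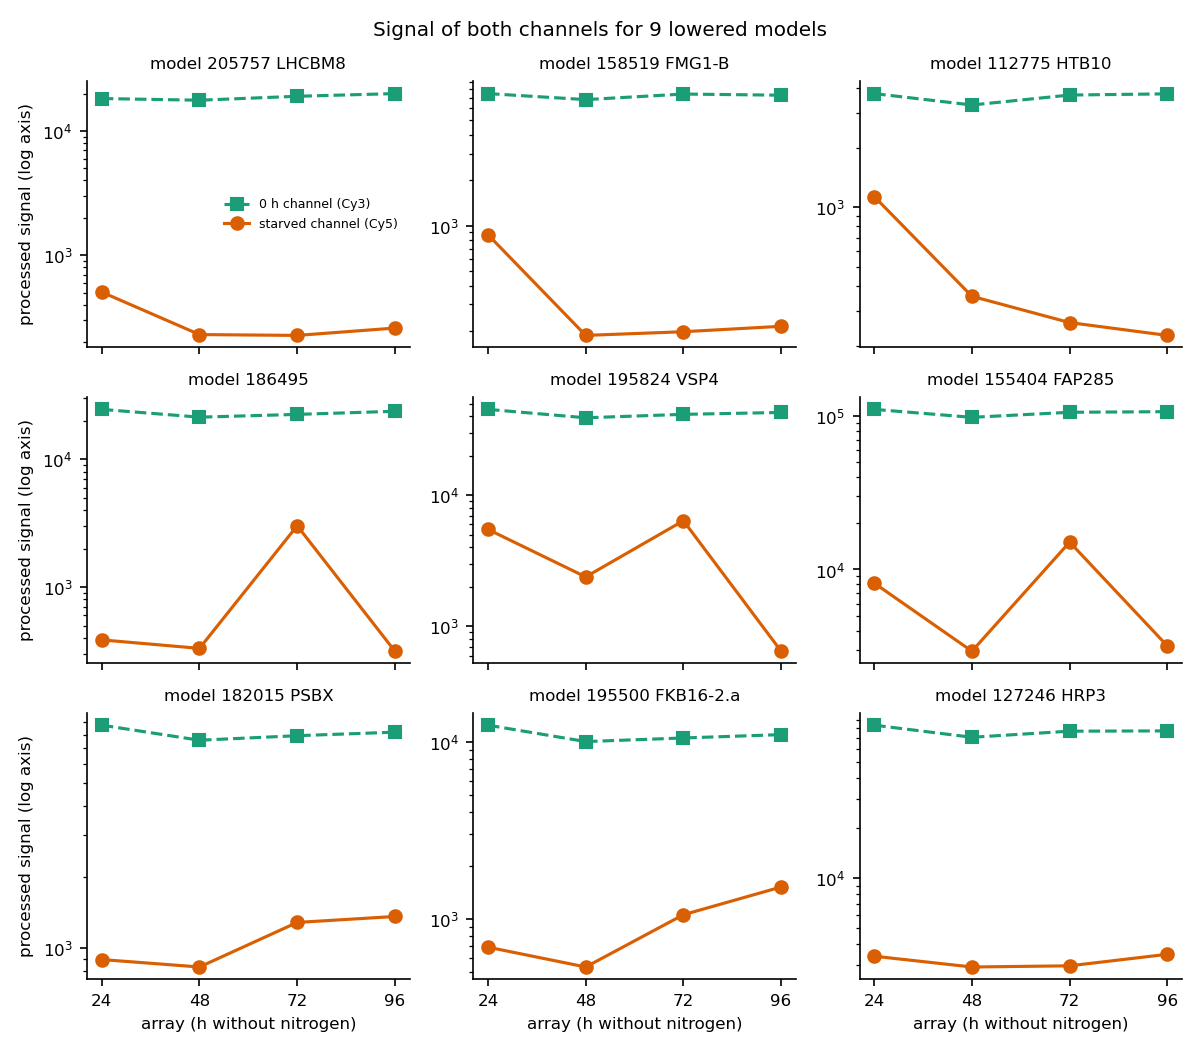
Processed signal on a log axis of the 0 h channel (squares, dashed) and the starved channel (circles, solid) on each of the 4 arrays for 9 of the lowered models, as the geometric mean of the kept probes; levels are not comparable between panels. The 0 h signal is nearly flat in each panel, and the starved signal of model 186495 is 3022 at 72 h and 315 at 96 h.

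The 72 h array set a few models apart. In model 186495, FAP285 and VSP4 the value at 72 h was at least 1 above the mean of 48 and 96 h, by 3.18, 2.26 and 2.26, which holds for 4.27% of all models. In RBD3 and model 173965 it was at least 1 below that mean, by -1.62 and -1.29, which holds for 2.27% of all models. The 3 probes of model 186495 were at -2.87, -3.14 and -2.68 at 72 h and at -5.09 or lower on the other arrays, so the difference was shared by all of its probes. With 1 array per time point, a change of the cells at 72 h and a property of that array cannot be told apart.

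The change between starved arrays was fitted as a linear trend per 24 h by limma, two-sided, with Benjamini-Hochberg adjustment over all 8227 models. The fit used the same 4 ratios that chose the models, each bounded at -2, so the calls among the 98 are a description and are not read against the other models. None of the 98 models was called, and the steepest slope was that of HTB10, at -0.88 ± 0.14 (SE) per 24 h. Among all models 0.498% were called falling and 0.0122% rising. At an unadjusted p under 0.05 there were 25 of the 98 models, 13 falling and 12 rising, and 1295 of all models. Slopes were below 0 for 45 and above 0 for 53 of the 98 models. Since a model had to stay at -2 or lower on every array, steep slopes could pass the rule only in models with deep decreases.

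Without the 72 h array the same test, with 1 residual degree of freedom per model, called 14 of the 98 models falling and 6 rising, where 6.84% of all models were called falling and 5.99% rising. Among the falling were VSP4, HTB10, LHCBM5 and PSAO, with slopes of -0.93, -0.85, -0.47 and -0.40 per 24 h. The 6 rising ones were 80367, 195502, FKB16-2.a, 146232, PSBX and 182705, with slopes from 0.71 down to 0.30. Without the 24, 48 or 96 h array none of the 98 and none of all models was called. The trend calls thus depend on which arrays enter, they rest on very few points with 3 arrays, and the selection on the same ratios holds for them too.

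The rule asks for signal in both channels, which bounds what it can show. There were 15 models without a value that had a probe well above background at 0 h on all arrays and under starvation on none, and 18 models without a value that had a probe saturated at 0 h on all arrays and never under starvation. Such models cannot be among the 98, however far they fell. Of the 294 probes of the 98 models 203 were kept, and 29 models rested on 1 probe, 33 on 2 and 36 on 3. Among the 91 others, 29 were saturated, 44 were dim at 0 h and 18 were dim under starvation only. Of the 44 dim at 0 h, 8 had a mean log2 ratio of -1 or lower, and the median of the 44 was -0.43. Others of the 44 were above 0, among them the slot 3 probes of models 128577, 188108 and 206105, at 1.11, 1.14 and 0.86. These slot 3 probes were well above background under starvation on all 4 arrays. Of the 29 saturated ones, 17 had a mean of -1 or lower. The 18 dim under starvation all had mean log2 ratios of -1 or lower, with a median of -3.90. A low starved signal put them in this class, in models chosen as lowered, so nothing is read from that count.

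Kept probes of a model did not always show the same decrease. In the 69 models with 2 or 3 kept probes the gap between the lowest and the highest probe mean had a median of 0.99. It was under 1 in 36 models and over 2 in 14. The largest gap, 5.09, was that of model 146308, whose slot 1 probe was at -5.75 and slot 2 probe at -5.96, while the slot 3 probe was at -0.87. In CTR3 the slots gave -4.22, -4.16 and -0.38. For the model listed as AOX2 (77667, CHLRE_03g169550v5), an alternative oxidase, which bypasses part of a respiratory chain, they gave -4.15 in slot 1 and -0.35 in slot 3. Since 2 probes then count by their midpoint, the AOX2 value of -2.25 is that of neither probe, and from slots 1 and 2 alone it was -4.15.

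Slot 3 held every kept probe with a mean above -1. Of 63 kept slot 3 probes 8 had a mean above -1, against 0 of 70 in slot 1 and 0 of 70 in slot 2. Slot 3 was compared with the mean of slots 1 and 2, or with the 1 of them that was kept. It was at least 1 above in 16 of 48 models and at least 1 below in 4. The same held for 84 and 10 of 462 other models called lower. For 12 of the 98 models a list of probe sources was at hand, which is taken to follow the slot order: all 12 slot 3 probes came from another design program than the slot 1 probes, and 5 of the slot 2 probes came from an earlier array. The part of probe design in these gaps was not tested.

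**Figure D4:**
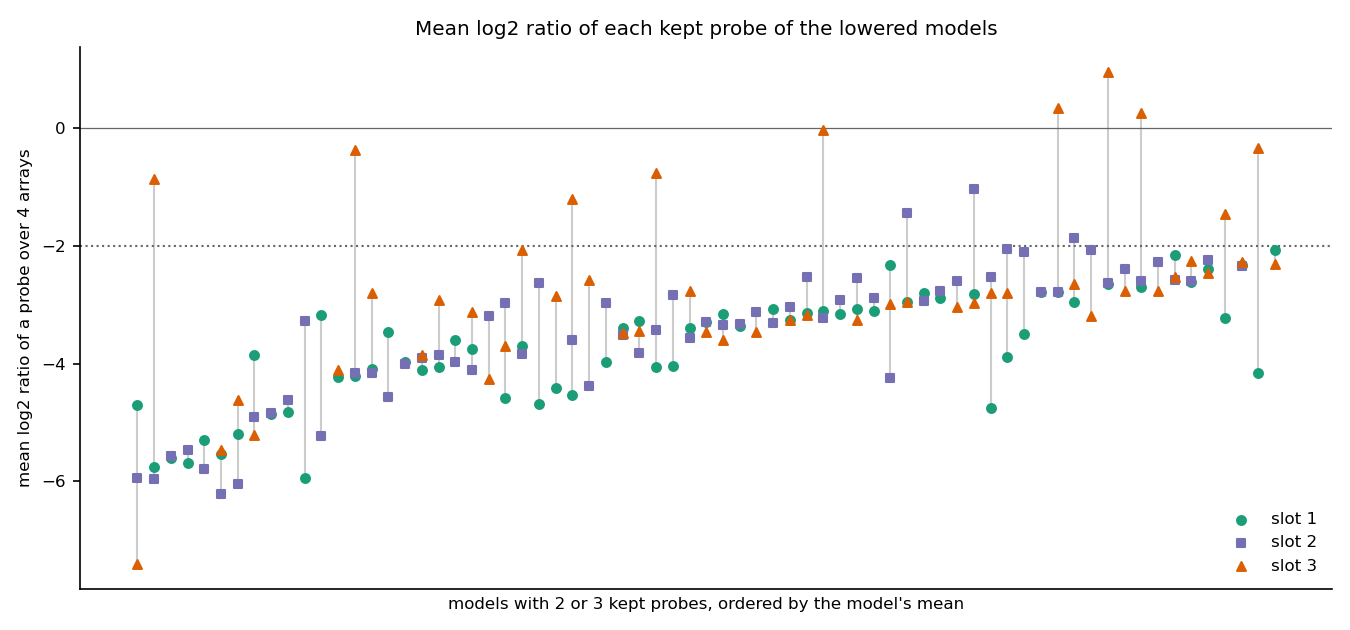
Mean log2 ratio over the 4 arrays (y axis) of each kept probe, by slot, for the 69 lowered models with 2 or 3 kept probes, ordered from left to right by the model's mean; grey lines join the probes of a model and the dotted line marks -2. The probes far above the dotted line are those of slot 3, where 8 of 63 have a mean above -1.

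For some models with 1 kept probe the probes left out showed little decrease. Model 182408, listed as MGE1, a mitochondrial co-chaperone, and models 165416, 147787 and 136294 had kept probes at -3.40, -3.05, -2.49 and -2.73. Their saturated probes, which cannot show the full decrease, had means between -0.55 and -0.08. Their 0 h signal was saturated on each of the 4 arrays, and for most of these probes the starved signal was saturated too, on 1 to 3 arrays. In model 143868 the kept probe was at -2.77, and the 2 others, dim at 0 h on 1 array each, were at 0.31 and 0.59. In model 98483 the kept probe was at -4.16, and the 2 others, well above background at 0 h on no array, were at 1.16 and 1.02. All models of this paragraph were singled out after their values were seen.

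At the edge of the rule, the models listed as CPLD31 (185598) and AOX2 and model 147457 were just inside, with highest array values of -2.04, -2.06 and -2.05. Just outside were VSP3, model 154159 and model 108283, with highest values of -1.996, -1.96 and -1.95. With probes above background in either channel model 147457 had a mean of -1.09, and with normexp and loess it was at -1.68. In all, 165 models had a mean of -2 or lower without reaching -2 on every array.

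In the gene order of assembly v5.5, 4 pairs of the 98 models lay within 9 genes of each other. Whether this is few or many for so many models was not tested. Model 147787 (CHLRE_14g626700v5) and model 183986 (CHLRE_14g626750v5) were adjacent, with means of -2.49 and -3.43. The models listed as CTR3 and CYB5-2 (196115) had 5 genes between them, with means of -4.16 and -2.98. Probe GC content was at hand for 12 of the 98 models, with a median of 50% against 54.9% for the 878 models that could be compared.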

How the data were processed

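Per the file headers, the authors deposited Agilent Feature Extraction 10.7.3.1 output: processed Cy3 and Cy5 intensities after background subtraction, spatial detrending and linear and lowess dye normalization, and their log10 ratio, which the deposited series table repeats. Probes were designed on JGI 3.1 models, 3 per model. A probe was kept if well above background in both channels and not saturated on all 4 arrays (15634 of 43671), and a model's value was the median log2 ratio. The mean over time points (3 residual degrees of freedom) and a linear trend (2) were tested two-sided with limma 3.58.1 in R 4.3.3, Benjamini-Hochberg adjusted over 8227 models. Calls needed an adjusted p below 0.05 and, for the mean, a change of at least 2-fold. The 0 h RNA counted as 1 control sample, whose own spread no test covers, and all arrays lay on 1 slide. Both tests were tested on simulated data. Alternatives were normexp with loess, median centring, other probe filters and summaries, Holm adjustment, an unpooled spread and leaving out each array. Models are named by a rule: those in a list, the 10 lowest with at least 2 kept probes, any called in the trend (none was), those at the edge of the rule, the 3 widest, the 3 narrowest and the 3 with the largest probe gap. Others were chosen after their values were seen. The models, lists and rules were chosen with earlier results of these data known. Columns of the authors' supplementary tables served for names and probe sources only. The number of arrays limits the precision.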

Additional observations from a re-analysis of the deposited data

How the results depend on the processing

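The count of 98 models held within 1.5 times under all other normalizations, filters and probe summaries tried, from 69 with normexp and loess (68 of the 98) to 120 with probes above background in either channel (95 of the 98). It became 244 when -2 or lower on at least 3 arrays sufficed, and lay between 101 and 202 when 1 array was left out, highest without the 24 h array. Holm adjustment lowered the calls over the time points from 928 to 131 lower and from 552 to 83 higher, and leaving out 1 array gave 788 to 965 lower and 512 to 634 higher. Probes above background in either channel gave 1034 models called higher and 967 called lower. The trend called 42 models, 24 with normexp and loess and 25 with probes above background in either channel, and between 0 and 1056 without 1 array, the highest without the 72 h array; the cause was not tested. None of the means of the 31 models named by rule changed sign under any alternative that gave a value. With normexp and loess 14 of the 31 moved by more than their SD over the arrays. Keeping saturated probes moved 5 of the 31 and left 88 of the 98 within the rule, and among the 98 model 143868 changed sign, to 0.31, with probes above background in either channel. No paired analysis was possible because each time point was 1 array. Dim probes at 0 h give only a bound on a ratio, and with 1 array per time point no decrease at a single time has an error.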
